A study of Mus musculus with 12 samples.

Results

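The genes described here are 7 interferon-inducible GTPases of mouse: 4 guanylate-binding proteins (GBPs), Gbp2, Gbp3, Gbp5 and Gbp7, and 3 immunity-related GTPases (IRGs), Irgm1, Irgm2 and Igtp. They were chosen by family and matched on gene symbol, 1 row per Ensembl identifier, which gave 7 of the 23764 identifiers in the deposited table. All 7 passed the filter on low values, which left 14715 genes to test. RNA was sequenced from RAW264.7, a transformed macrophage-like cell line from a Balb/c mouse. Every culture received RANKL, the cytokine that drives macrophage precursors towards osteoclasts, at the 100 ug/ml that the labels give. Treated cultures also received L. reuteri culture supernatant, and vehicle cultures received MEM-alpha medium. RNA was harvested after 1, 3 and 5 days. This gave 6 groups of 2 libraries: treatment and vehicle at day 1, treatment and vehicle at day 3, and treatment and vehicle at day 5. No group without RANKL is in the series, and RAW264.7 is 1 line, so any difference is between states of the same transformed cells. The labels do not say whether replicates were separate cultures, so p-values speak only of spread among these libraries and that spread may be technical.

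GBPs and IRGs are GTPases that interferon-gamma, and to a varying degree the type I interferons, induce in macrophages. GBPs assemble on the membranes of bacteria and of vacuoles that hold parasites, and can expose them to inflammasome sensors. The IRGM proteins, Irgm1, Irgm2 and Igtp (also named Irgm3), sit on the cell's own organelles and keep the effector IRGs inactive there. Interferon signals reach such genes through 2 kinds of promoter element, the interferon-stimulated response element (ISRE), bound by complexes that hold Irf9 and by other Irf proteins, and the gamma-activated site (GAS), through which interferon-gamma acts.

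The promoters of the members are shown because the members were chosen by family, without regard to promoter sequence, and an ISRE-like sequence was found in each. RefSeq promoter windows of build GRCm38.p6, from 250 bases before to 50 after each annotated start site, were found for all 7 symbols, with 8 windows in all since Gbp3 has 2. Each window was searched for the ISRE core, which is GAAA, any 2 bases and GAAA again, or on the other strand TTTC, any 2 bases and TTTC, and for the GAS letters TTCNNNGAA, which read alike on both strands. The 2 motifs can overlap. Each of the following stretches of 80 bases is written 5′ to 3′ on the strand of its gene, with the ISRE match in capitals. They lie on chromosome 3 for the GBPs, on the plus strand, and on chromosome 11 for the IRGs, where Irgm1 is on the minus strand and Irgm2 and Igtp on the plus strand.
Gbp2, chr3:142620569-142620648: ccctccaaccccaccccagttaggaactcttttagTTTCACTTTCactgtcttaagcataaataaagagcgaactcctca
Gbp3, chr3:142559964-142560043: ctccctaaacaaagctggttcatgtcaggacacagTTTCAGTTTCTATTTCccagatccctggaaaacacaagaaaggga
Gbp5, chr3:142496734-142496813: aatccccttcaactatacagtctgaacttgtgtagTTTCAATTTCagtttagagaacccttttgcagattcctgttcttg
Gbp2b, chr3:142594675-142594754: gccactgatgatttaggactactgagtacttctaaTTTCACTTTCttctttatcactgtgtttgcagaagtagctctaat
Gbp7, chr3:142530248-142530327: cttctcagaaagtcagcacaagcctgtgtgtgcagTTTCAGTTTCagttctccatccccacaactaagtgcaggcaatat
Irgm1, chr11:48871421-48871500: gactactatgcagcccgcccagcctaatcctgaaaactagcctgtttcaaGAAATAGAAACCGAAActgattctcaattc
Irgm2, chr11:58214878-58214957: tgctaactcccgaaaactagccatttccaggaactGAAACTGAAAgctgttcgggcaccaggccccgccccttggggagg
Igtp, chr11:58199476-58199555: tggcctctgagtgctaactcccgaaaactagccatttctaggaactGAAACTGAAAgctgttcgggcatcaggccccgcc

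The identity of 1 row needs care. The row that carries the symbol Gbp5 has the identifier ENSMUSG00000040264, which the GENCODE M21 annotation names Gbp2b, a different GBP of the same cluster. The gene that M21 names Gbp5 has another identifier and is not analysed here. Both promoters are therefore shown above, and the row is called Gbp5 in the text because that is the deposited symbol.

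ISRE matches were found in 7 of 7 members, by the symbol or by the identifier of the Gbp5 row, against 3.99% of the 27025 genes with a promoter window. Gbp3 and Irgm1 each had 2 overlapping matches, which share bases. GAS matches were found in Gbp5, Gbp7, Irgm2 and Igtp, which is 4 of 7 by symbol and 3 of 7 by identifier, since the Gbp2b window had none, against 9.55% of genes. The ISRE matches of Irgm2 and Igtp sit in nearly the same sequence: over 270 aligned bases and gaps, 244 positions of their promoters were identical, or 90.4%. A match describes letters in a window, not binding. Of the other genes on the family lists, 8 had a window, of which 4 held an ISRE match and 3 a GAS match. Gm12250, Tgtp1 and Tgtp2 held both. None of the 8 is a GBP, so apart from Gbp2b no promoter of another GBP was searched.

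**Figure D1:**
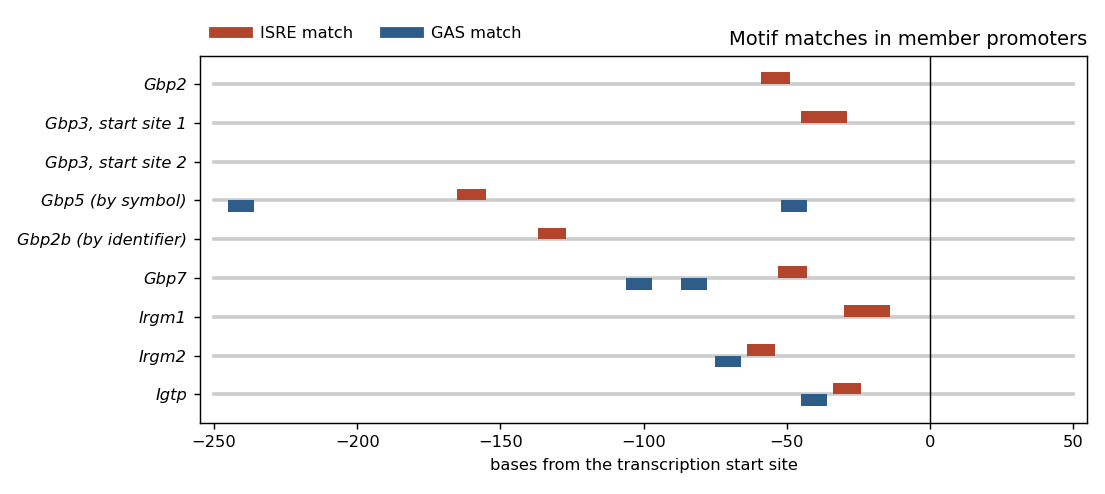
Positions of ISRE (red, above the line) and GAS (blue, below the line) letter matches in the RefSeq promoter windows of the members, in bases from the annotated transcription start site on the gene's strand. Matches of ISRE lie before the start site in every member, and the second start site of Gbp3 has no match of either motif.

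The libraries fell into 2 kinds. In 4 of them, replicate 2 of treatment and vehicle at days 3 and 5, nuclear protein-coding genes held 38.1% to 48.8% of reads, against 85.2% to 87.6% in the other 8. Mitochondrial genes held 25.7% to 30.6% in those 4, against 3.64% to 5.97% in the other 8, and the nuclear RNA Malat1 held 8.15% to 14.0%, against 0.218% to 0.489%. These 4 are called set apart below. Depth was 8071160 to 10724569 reads in the 4 and 13812078 to 16781080 in the 8. The macrophage markers were present in every library, with a summed normalized count of 84628 to 335330 over the 8 and 23960 to 144510 over the 4. Osteoclast markers summed to 2285 to 11212 over the 8 and 3122 to 17107 over the 4. T cell markers summed to at most 3.68 over the 8, with Cd3d and Cd8a at 0, and to 3.56 to 8.48 over the 4. B cell markers summed to at most 10.1, and the 2 fibroblast markers matched to at most 3.13. Of the NK cell list no gene was matched. The main comparison used the 8 libraries, so that each arm had 2 libraries at day 1 and 1 library at days 3 and 5. The spread behind every test of it comes from day 1, a spread that the single library per arm of each later day is taken to share. Results with the 4 set-apart libraries are given beside it. In bulk RNA, fewer cells expressing a gene and less RNA per cell cannot be told apart.

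Levels differed widely between the members. Per kilobase of exon, the median normalized count over the 8 libraries was 64.4 for Irgm1, 45.9 for Igtp and 37.7 for Irgm2. It was 5.66 for Gbp7, 5.42 for Gbp2, 4.34 for Gbp5 and 3.24 for Gbp3. All 3 IRGs thus stood above all 4 GBPs by these per-length medians over the 8 libraries. In the set-apart libraries Irgm2 was below Gbp7 in vehicle cells at day 3 (0.797 against 4.97) and day 5 (2.68 against 3.27). It was also below Gbp7 in treated cells at day 3 (2.56 against 2.80), and above it in treated cells at day 5 (8.67 against 1.48). Over the 8 libraries Irgm1 ranged from 40.7 to 113, Igtp from 23.2 to 90.3 and Irgm2 from 17.6 to 67.1 per kilobase, so these neighbours overlapped. The ranges of the 4 GBPs overlapped too, and spanned 0.277 to 13.7 per kilobase. The 2 vehicle libraries of day 1 kept the order of the IRGs apart, with 46.4 and 51.4 per kilobase for Irgm1, 32.9 and 42.0 for Igtp and 24.1 and 24.6 for Irgm2. Precision followed the counts: Irgm1 was measured with 300 to 716 reads in each of the 8 libraries, while Gbp2, Gbp3 and Gbp5 had as few as 5, 5 and 1 read. Igtp and Irgm2 share 162 exon bases in the annotation, which is 8.01% of Igtp and 4.39% of Irgm2. Both genes lie on the plus strand, so strand would not tell reads there apart.

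At day 1 both treated libraries were above both vehicle libraries for all 7 members. Among all genes tested, 21.4% had this arrangement. Gbp2 and Gbp3 passed the filter only through treated groups, so they add no support to that count. In the test across all genes (limma, Benjamini-Hochberg adjustment over 14715 genes), Gbp5 and Irgm1 rose with treatment at day 1, which is 2 of 7 members, against 3.12% of all genes called higher. No member rose at day 3 by this test, where 0.116% of genes were called higher. An unadjusted p under 0.05 was found there for 4 of 7 members and for 1804 of the 14715 genes. At day 5 Irgm1 alone rose, against 2.54% of genes. For the mean of the 3 days, Gbp5, Irgm1, Irgm2 and Igtp rose, 4 of 7 against 4.66% of genes, and no member fell with treatment in any of these tests, where 2.62%, 0.00%, 3.27% and 5.62% of genes were called lower. Gbp7 at day 5 was the only member below 0. The median difference of the 7 was 1.00 on the log2 scale at day 1, 0.86 at day 3 and 0.55 at day 5, where the medians of all genes were -0.04, -0.01 and -0.09. These medians include Gbp2 and Gbp3, at 1.24 and 1.31 at day 1, which the filter favoured. At day 1 Igtp, Irgm1, Irgm2, Gbp7 and Gbp5 differed by 0.38, 0.53, 0.67, 1.00 and 1.39.

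These counts depend on how the filter is read. With group means for the filter taken over the 8 fitted libraries in place of all 12, 14371 genes were tested and 5 of 7 members rose at day 1 (6.33% of genes called higher), 4 of 7 at day 3 (2.00%) and 1 of 7 at day 5 (5.43%). This reading was run first, and the one reported above, which makes fewer calls, was made the main result after those results had been seen. At day 1 the filter over the 8 libraries added Gbp3, Gbp7 and Irgm2. With all 12 libraries in 1 fit, limma called 0 of 7 members and 0.00% of genes in each treatment comparison, and no member had an unadjusted p under 0.05. With any of the 4 libraries of day 1 left out, whether treatment replicate 1 or 2 or vehicle replicate 1 or 2, the count of members called was 0 in each of these comparisons.

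**Figure D2:**
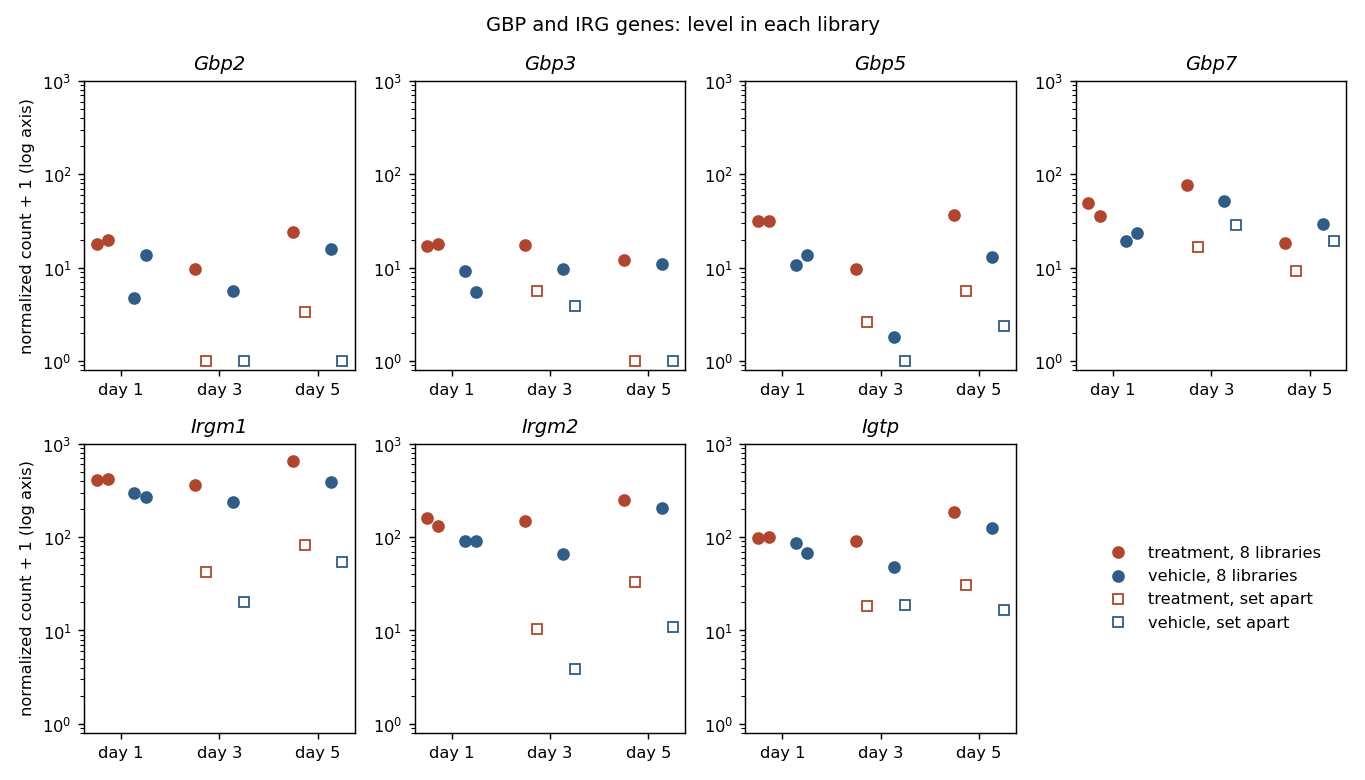
Normalized count plus 1 of each member in each of the 12 libraries (log axis), treatment in red and vehicle in blue, with open squares for the 4 set-apart libraries. At day 1 both treated libraries are above both vehicle libraries for all 7 genes, and at day 5 the treated library of replicate 1 is above vehicle for 6 of 7, Gbp7 being the exception.

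Irgm1, the member at the highest level, regulates the other IRGs, acts at lysosomes and the Golgi and is needed by mice to control mycobacteria. Its normalized counts at day 1 were 404.7 and 413.2 in treated cells, against 298.4 and 269.3 in vehicle cells. At day 3 it had 362.3 in treated and 236.8 in vehicle replicate 1, and 40.9 in treated and 19.1 in vehicle replicate 2, which is set apart. At day 5 it had 657.0 and 385.6 in replicate 1, treated and vehicle, and 81.8 and 53.7 in the set-apart replicate 2. Treatment was higher in each of the 6 same-numbered pairs, while the groups of days 3 and 5 overlapped once the set-apart libraries were counted. Such pairs, here and below, share only a number and were not treated as paired. In the set-apart pairs of days 3 and 5, 77.6% and 68.2% of all genes were higher with treatment. Irgm1 rose by 0.53 ± 0.08 on the log2 scale at day 1 (SE, 2 libraries per arm, limma adjusted p = 0.0309) and by 0.77 ± 0.11 at day 5 (1 library per arm, adjusted p = 0.0300). The difference at day 3 was 0.61 ± 0.11 (adjusted p = 0.152). For the mean of the 3 days it rose by 0.64 ± 0.06 (adjusted p = 0.00720), which is a 1.55-fold difference.

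Irgm2, a Golgi-associated regulator that in mouse macrophages restrains caspase-11, had 158.1 and 130.9 normalized counts in treated cells at day 1, against 90.9 and 88.9 in vehicle cells. At day 3 it had 147.1 in treated and 64.9 in vehicle replicate 1, and 9.4 and 2.9 in the set-apart pair, treated and vehicle. At day 5 it had 247.7 in treated and 205.2 in vehicle replicate 1, and 32.0 and 9.9 in the set-apart pair. Treatment was again the higher of each pair. The differences on the log2 scale were 0.67 ± 0.14 at day 1 (limma adjusted p = 0.0563), 1.17 ± 0.19 at day 3 (adjusted p = 0.123) and 0.27 ± 0.19 at day 5 (adjusted p = 0.427), none of which passed the threshold. Irgm2 rose for the mean of the 3 days, by 0.70 ± 0.10 (adjusted p = 0.0193).

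Igtp, which sits on the endoplasmic reticulum and lipid droplets, had 96.2 and 100.1 normalized counts in treated cells at day 1, against 84.8 and 66.4 in vehicle cells. At day 3 it had 89.2 in treated and 46.9 in vehicle replicate 1, and 17.3 and 17.6 in the set-apart pair, treated and vehicle. At day 5 it had 182.6 in treated and 124.2 in vehicle replicate 1, and 29.6 and 15.5 in the set-apart pair. Treatment was the higher in 5 of the 6 pairs, the set-apart pair of day 3 being nearly equal. Among the treatment comparisons Igtp passed the threshold for the mean of the 3 days, where it rose by 0.62 ± 0.12 on the log2 scale (limma adjusted p = 0.0419). Its differences were 0.38 ± 0.16, 0.91 ± 0.23 and 0.55 ± 0.23 at days 1, 3 and 5 (adjusted p = 0.232, 0.255 and 0.217), and with the filter over the 8 libraries the one at day 3 passed (adjusted p = 0.0459).

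The row named Gbp5 had the largest fitted treatment difference of the members at each day over the 8 libraries. GBPs of this kind carry a lipid anchor at the C-terminus and take part in inflammasome activation. It had 30.9 and 30.8 normalized counts in treated cells at day 1, against 9.8 and 12.6 in vehicle cells. At day 3 it had 8.6 in treated and 0.8 in vehicle replicate 1, which are 11 reads and 1 read, and 1.6 and 0 in the set-apart pair. At day 5 it had 35.8 in treated and 12 in vehicle replicate 1, and 4.7 and 1.4 in the set-apart pair. Treatment was higher in each of the 6 pairs. Gbp5 rose by 1.39 ± 0.24 on the log2 scale at day 1 (limma adjusted p = 0.0435) and by 1.78 ± 0.18 for the mean of the 3 days (adjusted p = 0.00908). The ratio at day 3 in replicate 1 was 11, with an exact 95% interval of 1.60 to 474 that covers counting error only. The fitted differences of 2.43 ± 0.35 at day 3 (adjusted p = 0.0980) and 1.51 ± 0.35 at day 5 (adjusted p = 0.0706) did not pass the threshold.

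Gbp7, a GBP linked in mice to vacuole attack and to the assembly of the phagocyte oxidase, was the member whose treatment difference changed sign between days. It had 49.0 and 35.1 normalized counts in treated cells at day 1, against 18.2 and 22.4 in vehicle cells. At day 3 it had 76.7 in treated and 50.8 in vehicle replicate 1, and 15.7 and 27.9 in the set-apart pair, treated and vehicle. At day 5 it had 17.4 in treated and 28.5 in vehicle replicate 1, and 8.3 and 18.4 in the set-apart pair. Treatment was thus the higher at day 1 in both pairs and the lower at day 5 in both pairs. How many of all genes had opposite signs in this way was not counted. The differences were 1.00 ± 0.25 at day 1 (limma adjusted p = 0.0838), 0.59 ± 0.35 at day 3 (adjusted p = 0.578) and -0.68 ± 0.35 at day 5 (adjusted p = 0.291) on the log2 scale, and none passed. The test of a treatment effect that differs between days (F test of limma over 2 contrasts) called 0 of 7 members. On the recovered reads limma-voom also called 0. In the limma F test 1 of 7, Gbp7, had an unadjusted p under 0.05, as did 2627 of the 14715 genes, no smaller a share. Gbp7 had an adjusted p = 0.233 there, and 0.102% of all genes were called. For the day 5 difference minus the day 1 difference alone, Gbp7 had -1.68 ± 0.43 (limma adjusted p = 0.163), where 0.510% of genes were called. With the filter over the 8 libraries, the same contrast called Gbp7 (adjusted p = 0.0343), 1 of 7 against 5.61% of genes, while the F test did not (adjusted p = 0.0656). Over all the alternatives, its adjusted p for that contrast ran from 0.0343 to 1.

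Gbp2 and Gbp3, 2 GBPs that coat parasite vacuoles in mouse cells, were at low counts. Gbp2 had 17.2 and 18.8 normalized counts in treated cells at day 1, against 3.8 and 12.6 in vehicle cells. It had 8.6 in treated and 4.7 in vehicle replicate 1 at day 3, and 22.9 in treated and 14.7 in vehicle replicate 1 at day 5. In the set-apart pairs it had 0 and 0 at day 3, and 2.4 in treated and 0 in vehicle at day 5. The treated library was above vehicle in 5 pairs and equal at 0 in the other. Gbp3 had 16.3 and 17.1 in treated cells at day 1, against 8.3 and 4.5 in vehicle cells. It had 16.4 in treated and 8.6 in vehicle replicate 1 at day 3, and 11 and 10.1 at day 5, treated and vehicle. In the set-apart pairs it had 4.7 in treated and 2.9 in vehicle at day 3, and 0 and 0 at day 5. On the log2 scale the differences at day 1 were 1.24 ± 0.52 for Gbp2 (limma adjusted p = 0.222) and 1.31 ± 0.33 for Gbp3 (adjusted p = 0.0881). Neither gene passed in any treatment comparison of the reported fit. With the filter over the 8 libraries Gbp3 was called at day 1, where 6.33% of genes were called higher. The vehicle libraries of day 1 held 5 to 14 reads of these genes. Their vehicle groups averaged at most 8.18 for Gbp2 and 6.41 for Gbp3, under the filter's 10. Both genes passed only through treated groups, so treated values above vehicle were favoured by the filter.

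**Figure D3:**
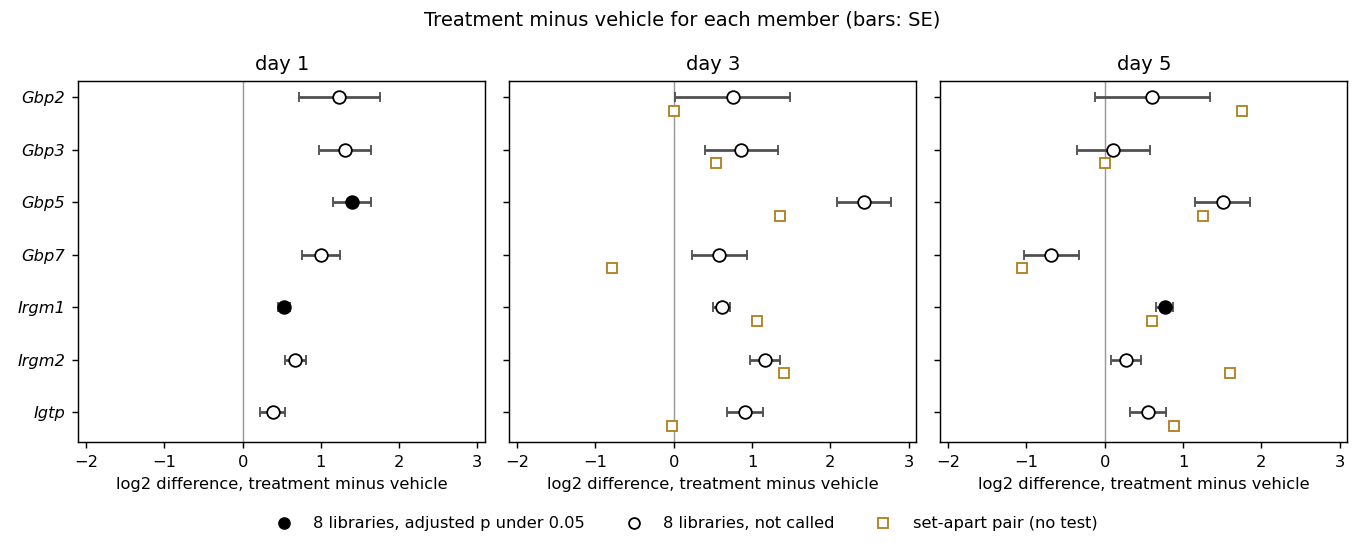
Treatment minus vehicle for each member on the log2(normalized count + 1) scale at days 1, 3 and 5, with bars of 1 SE from the fit of 8 libraries; filled points passed an adjusted p of 0.05 and open points did not. Squares give the set-apart pair of days 3 and 5, with no test; Gbp7 is below 0 in both kinds of library at day 5.

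In the 4 set-apart libraries the pairs gave fewer members above 0. Treatment was the higher for 4 members, the lower for 2 and equal for 1 at day 3, and the higher for 5, the lower for 1 and equal for 1 at day 5. The median over the 7 was 0.54 at day 3 and 0.89 at day 5 on the log2 scale. The median over all genes in those pairs was 0.46 and 0.23, so the treated set-apart libraries stood above vehicle across the table, with 77.6% and 68.2% of genes higher. In replicate 1 all 7 were higher at day 3 and 6 of 7 at day 5, where 48.4% and 36.0% of all genes were higher. Within an arm and day the set-apart library held less of every member than replicate 1. Irgm2 was 15.6-fold lower at day 3 and 7.74-fold lower at day 5 in treated cells, and 22.1-fold and 20.8-fold lower in vehicle cells. Irgm1 was 8.85-fold and 8.03-fold lower in treated cells, and 12.4-fold and 7.18-fold lower in vehicle cells. Gbp7 was 4.87-fold and 2.10-fold lower in treated cells, and 1.82-fold and 1.55-fold lower in vehicle cells. The medians over all genes were -1.20 and -0.92 on the log2 scale in treated cells at days 3 and 5, and -1.71 and -1.28 in vehicle cells. The shares of mitochondrial and Malat1 reads given above move with these drops, and their part in them was not tested.

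Over time in vehicle cells, which received RANKL alone, the members did not move as 1 group. At day 3 against day 1, Gbp7 rose by 1.29 ± 0.30 on the log2 scale (limma adjusted p = 0.0412) and Gbp5 fell by 2.77 ± 0.30 (adjusted p = 0.00497), which is 1 of 7 in each direction against 9.69% of genes called higher and 10.0% called lower. The value of Gbp5 at day 3 rests on 1 read. At day 5 against day 1, Irgm1 rose by 0.44 ± 0.10 (adjusted p = 0.0252) and Irgm2 by 1.18 ± 0.17 (adjusted p = 0.00725), 2 of 7 against 14.4% of genes. Igtp differed by 0.72 ± 0.20 there (adjusted p = 0.0506), and was called with the filter over the 8 libraries (adjusted p = 0.00974) and in limma-voom (adjusted p = 0.00852). Those alternatives called 5371 of 14371 and 5280 of 14715 genes in that comparison. Each later time is 1 library of replicate 1 against the 2 libraries of day 1. All 7 macrophage markers rose at day 5 against day 1, as did 3 of 6 osteoclast markers, while 2 of 6 fell, against 15.0% of genes called lower. At day 3 against day 1, 3 of 7 macrophage markers rose and 1 fell, and 5 of 6 osteoclast markers rose. The part of these markers in the members' differences was not tested.

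In treated cells, Gbp5 fell by 1.73 ± 0.30 on the log2 scale at day 3 against day 1 (limma adjusted p = 0.0188), 1 of 7 against 9.13% of genes called lower, and no member rose, against 10.8% called higher. At day 5 against day 1, Irgm1 rose by 0.68 ± 0.10 (adjusted p = 0.00717), Irgm2 by 0.78 ± 0.17 (adjusted p = 0.0222) and Igtp by 0.89 ± 0.20 (adjusted p = 0.0270), 3 of 7 against 12.9% of genes. Gbp7 fell by 1.20 ± 0.30 (adjusted p = 0.0361), 1 of 7 against 18.1%. In that comparison 6 of 7 macrophage markers rose, and 2 of 6 osteoclast markers rose and 2 fell. At day 3 against day 1, 2 of 7 macrophage markers rose and 1 fell, and 5 of 6 osteoclast markers rose and 1 fell. The part of these markers was not tested. The treated and vehicle libraries are different samples here, and the difference between the 2 time courses is the test by day given for Gbp7 above. In the set-apart libraries the 3 IRGs were below day 1 in both arms at both later days, at -4.53 to -1.70 on the log2 scale, so the rise at day 5 is seen in replicate 1 and not in replicate 2.

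The levels of the members moved together to different degrees. Over the 8 libraries, the log2 level of Irgm1 correlated with the mean of the other 6 members at a Pearson r of 0.88, Irgm2 at 0.86, Igtp and Gbp2 at 0.79, Gbp5 at 0.71, Gbp3 at 0.57 and Gbp7 at -0.18. These describe 8 libraries that share days and treatment, and carry no test. The genes whose profile was most like the mean of the members, among 11246 genes averaging 50 normalized counts or more, were Ddx58 (0.99), Dhx58 (0.98), Oasl1 (0.98), Irf9 (0.98), Lgals9 (0.97), Phf11c (0.97), Xaf1 (0.97) and Mr1 (0.97). The 95th percentile of all compared genes was 0.72. Ddx58 and Dhx58 encode RNA sensors of the RIG-I family, Oasl1 an oligoadenylate synthetase-like protein, and Irf9 the DNA-binding part of the ISRE complex.

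Of the other GBPs, 3 passed the filter and limma called 0 at each single day, against 844, 17 and 855 of all genes. Their counts at an unadjusted p under 0.05 were 2, 1 and 3 at days 1, 3 and 5. Among all 14715 genes those counts were 3661, 1804 and 3809. At those days limma-voom called 0, 1 and 2, against 2007, 341 and 1960 of all genes. Gbp6 and Gbp9 passed the filter only through treated groups, so treated values above vehicle were favoured in them by the filter. Gbp6 had 22.3 and 13.7 normalized counts in treated cells at day 1, against 8.3 and 7.2 in vehicle cells. It had 14.1 in treated and 0 in vehicle replicate 1 at day 3, at least 6.01-fold higher against a floor of 3 reads in that library, and 58.7 in treated and 13.8 in vehicle replicate 1 at day 5. Gbp6 rose for the mean of the 3 days (limma adjusted p = 0.00864). Gbp8 differed by 1.51 on the log2 scale at day 1 (adjusted p = 0.0726) and 1.54 at day 5 (adjusted p = 0.129), and Gbp9 by 0.76 (adjusted p = 0.286) and 1.38 (adjusted p = 0.186). Gbp8 had 106.4 in treated and 35.9 in vehicle replicate 1 at day 5, where its day 1 libraries had 8.6 and 10.3 in treated cells and 3.8 and 1.8 in vehicle cells. All 3 rose in treated cells at day 5 against day 1, by 1.69 for Gbp6, 3.37 for Gbp8 and 2.14 for Gbp9 on the log2 scale, where 12.9% of genes were called higher. That rise is in replicate 1: the set-apart treated library of day 5 had 2.4, 1.2 and 0, below both treated libraries of day 1 for each gene.

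Of the other IRG genes and the giant GTPases, 7 passed the filter. Gvin1, an interferon-inducible giant GTPase, and its near copy Gm4070 rose at day 1 and day 5. That is 2 of 7 rows on each day, against 3.12% and 2.54% of all genes, though the 2 copies may count the same reads. The median difference of the 7 was -0.033 at day 1 and 0.0065 at day 5 on the log2 scale. Gvin1 had 1003 and 1159 normalized counts in treated cells at day 1, against 632.4 and 476.7 in vehicle cells. It had 464.8 in treated and 152.4 in vehicle replicate 1 at day 3, and 3414 in treated and 1294 in vehicle replicate 1 at day 5. The counts of Gm4070 follow those of Gvin1 in each library, and reads from such near-identical copies cannot be told apart, so the pair is uncertain as 2 genes. Gvin1 rose by 0.97 on the log2 scale at day 1 (limma adjusted p = 0.0325) and by 1.40 at day 5 (adjusted p = 0.0317). Ifi47, an IRG of the effector group, rose for the mean of the 3 days, by 0.62 (adjusted p = 0.0471). Irgq, 9930111J21Rik1, 9930111J21Rik2 and Gm5431 were not called in any treatment comparison and lay between -0.29 and 0.01. The effector IRGs Iigp1, Tgtp1 and Tgtp2 were under the filter, with 32, 43 and 60 reads in all over the 12 libraries, and Gbp4 had 31 reads in all.

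Of the ligands that induce these genes, Ifnb1 alone could be read. This gene of interferon-beta had 2 reads in 1 of 12 libraries, and Ifng and Ifna4 had no row matched and are not analysed here. Of the 19 interferon signalling genes tested, 4 rose at day 1, against 3.12% of all genes. Irf7, a factor that amplifies type I interferon, had 448.6 and 411.5 normalized counts in treated cells at day 1, against 207.5 and 180.4 in vehicle cells. It rose by 1.15 on the log2 scale at day 1 (limma adjusted p = 0.0127) and by 1.65 at day 5 (adjusted p = 0.0143). Irf9 rose by 0.60 at day 1 (adjusted p = 0.0153). Ifngr1, the ligand-binding chain of the interferon-gamma receptor, fell at day 5 by 1.24 (adjusted p = 0.00980), with 1078 in treated and 2541 in vehicle replicate 1. In the set-apart pair of day 5 it had 570.0 in treated and 388.5 in vehicle, the other way round. At day 5, 1 of the 19 rose, against 2.54% of all genes, and 2 fell, against 3.27%.

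Among 22 antiviral interferon-stimulated genes tested, 18 rose at day 1, 2 at day 3 and 12 at day 5, against 3.12%, 0.116% and 2.54% of all genes, and all 22 were above 0 at each of those days. Their median differences were 1.00, 1.30 and 1.05 on the log2 scale, beside 1.00, 0.86 and 0.55 for the 7 members. The members' medians include Gbp2 and Gbp3, in which the filter favoured treated values above vehicle. Oas2, a synthetase that activates RNase L, had 620.4 and 622.8 normalized counts in treated cells at day 1, against 313.6 and 306.1 in vehicle cells. It rose at day 1 by 1.00 (limma adjusted p = 0.00741), at day 3 by 1.18 (adjusted p = 0.0310) and at day 5 by 0.72 (adjusted p = 0.0198). Ddx58 rose by 0.85 at day 1 (adjusted p = 0.00881) and by 1.07 at day 3 (adjusted p = 0.0479), Rtp4 by 1.67 and Oas3 by 0.90 at day 1 (adjusted p = 0.00947 and 0.0110). In the set-apart pairs 21 of the 22 were above 0 at day 3 and 16 at day 5, against 77.6% and 68.2% of all genes. The count at day 5 is near that background. Among 14 genes of MHC class I and the immunoproteasome, 2 rose at day 1, against 3.12% of all genes. These were H2-T23, by 0.68, and Tap2, by 0.41 (limma adjusted p = 0.0423 and 0.0489). At days 3 and 5 limma called 0 of the 14. An unadjusted p under 0.05 was found for 5 and 3 of them, against 1804 and 3809 of the 14715 genes. At those days limma-voom called 0 and 1, against 341 and 1960 of all genes.

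The partners through which GBPs and IRGs act were called to different degrees. Of 17 genes of autophagy conjugation and of prenylation, Sqstm1, an autophagy receptor, rose at day 1 and day 5, by 0.48 and 0.62 on the log2 scale (limma adjusted p = 0.0222 and 0.0296), 1 of 17 on each day, against 3.12% and 2.54% of all genes called higher. It had 8265 and 8042 normalized counts in treated cells at day 1, against 6142 and 5552 in vehicle cells. Of 11 inflammasome and pyroptosis genes, Casp4, which encodes caspase-11, rose at day 1 by 0.77 (adjusted p = 0.0139) and Zbp1, a nucleic acid sensor, by 1.56 (adjusted p = 0.0241), while Casp8 fell by 0.28 (adjusted p = 0.0445). These are 2 of 11 higher and 1 of 11 lower, against 3.12% and 2.62% of all genes. By limma-voom 5 of 11 were called at day 1 and 4 of 11 at day 5. It called 2007 and 1960 of the 14715 genes at those days. Casp4 had 390.1 and 361.9 in treated cells at day 1, against 223.4 and 217.2 in vehicle cells, and at day 5 it had 425.7 in treated and 550.3 in vehicle replicate 1. Zbp1 rose again at day 5 by 1.77 (adjusted p = 0.0397). Beside these lists, 2 of 6 osteoclast markers tested rose with treatment at day 1, against 3.12% of all genes. At day 5, 1 of 6 fell, against 3.27%. Of 7 macrophage markers limma called 0 at day 1, and 2 had an unadjusted p under 0.05, as did 3661 of the 14715 genes. At day 1 limma-voom called 2 of the 7, against 2007 of all genes. At day 5, 1 of 7 macrophage markers fell, against 3.27% of all genes, and limma-voom called 2, against 1960 genes. For the mean of the 3 days 1 of 7 macrophage markers and 1 of 6 osteoclast markers fell, against 5.62% of all genes. Their part in the differences was not tested.

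**Figure D4:**
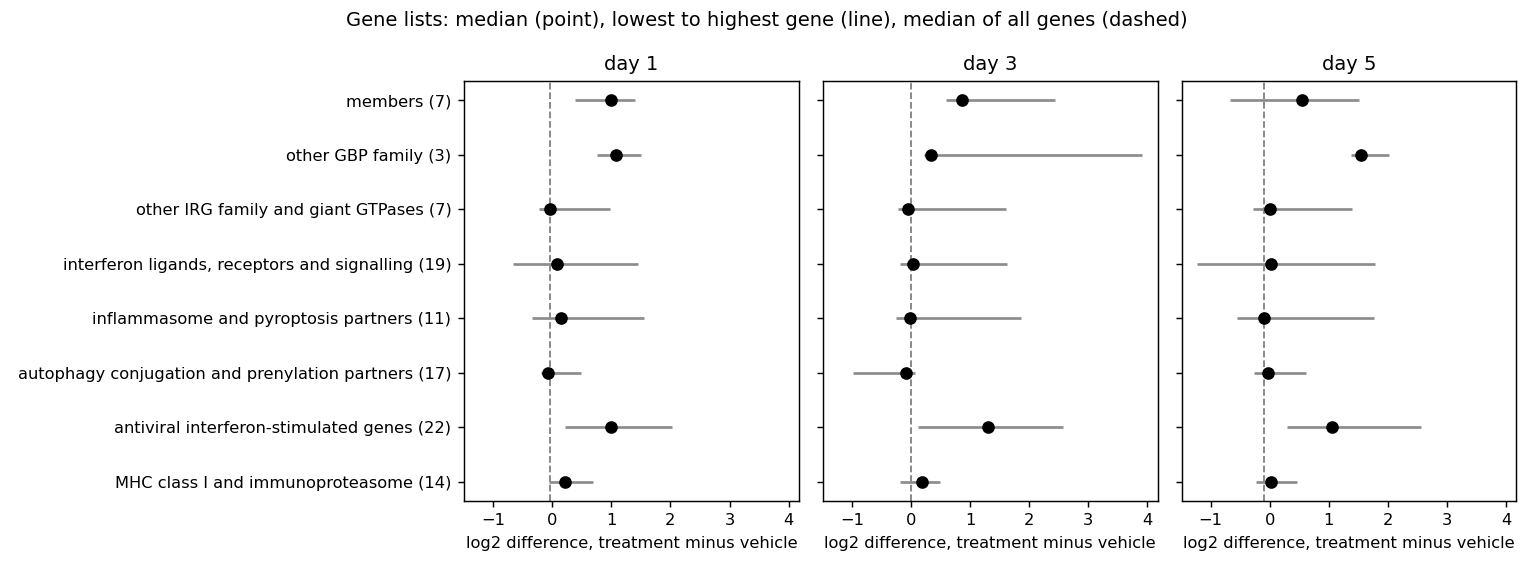
Treatment minus vehicle on the log2 scale at days 1, 3 and 5 for the members and 7 gene lists, with the number of tested genes in brackets; the point is the list's median, the line runs from its lowest to its highest gene and the dashed line is the median of all 14715 genes. The members and the antiviral interferon-stimulated genes have medians of 1.00 at day 1, and the autophagy list is near the dashed line at each day. The members' median includes Gbp2 and Gbp3, which passed the filter only through treated groups.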

How the data were processed

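Per the labels, total RNA of RAW264.7 cells went into TruSeq libraries, 2 per group. TopHat2, SAMtools, DESeq2 and build mm9 are named in the submitters' processing notes, without versions or the roles of the tools; the authors' annotation is not given in the sources used here. A single table of log2 values per gene and library was deposited by the authors. Per the values, each is log2 of a normalized count plus 8. With that offset removed, every library's positive values (100%) fell on multiples of a single step to within 0.02 reads, which recovers the reads. The table held 24757 rows, of which 993 repeats with equal values were dropped. Its Ensembl identifiers were used for names and lengths (GENCODE M21, a later build than mm9), since its second identifier column did not match its symbols. Promoters came from RefSeq (GRCm38.p6).

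The members and lists were chosen with earlier results of these data known. Genes averaging at least 10 normalized counts in any of the 6 groups, over all 12 libraries, were tested (14715); the same filter over the 8 libraries was run first, and the reading over 12 was made the main one after the results of that first run were known. Group means were fitted with limma 3.58.1 (trended prior; R 4.3.3) on the scale log2(normalized count + 1), using the 8 libraries with at least 60% of reads in nuclear protein-coding genes, with 2 residual degrees of freedom and Benjamini-Hochberg adjustment over all genes at 0.05. The pseudocount understates changes of low genes. limma-voom on the recovered reads was an alternative. Data were simulated from these libraries, 14715 genes with 100 changed by 1 and 100 by 2 on the log2 scale. The fit recovered 58 and 96 at day 1, 9 and 78 at day 3, and 12 and 82 at day 5. These rates are given by day and size of change, not by expression level. They are therefore not recovery rates for the 4 GBP members. Mean normalized counts of those members in vehicle cells at day 1 ran from 6.41 (Gbp3) to 20.3 (Gbp7). Named genes were the 7 members, every other GBP or IRG gene tested, up to 4 genes per list by smallest p over the treatment comparisons, and the 8 genes most alike in profile. One gene that this rule names is not reported here. Same-group libraries differed beyond counting noise, with a chi-square per degree of freedom of 3.94 and 4.93 in the day 1 groups and 495 to 708 in the others. Alternatives were another pseudocount, no filter, the filter over 8 libraries, quantile normalization, the deposited log2 values, all 12 libraries, a replicate block, the day 1 libraries alone and leaving out each library. Python 3.11.15 and pandas 2.3.3 were used for summaries.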

Additional observations from a re-analysis of the deposited data

Results flagged for a closer look

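Gbp7 was the member whose treatment difference had opposite signs at day 1 and day 5 in every same-numbered pair of those days. The share of all genes with such a pattern was not counted, so it cannot be set against a background. At day 1 treatment minus vehicle was 1.38 and 0.622 on the log2 scale in the pairs of replicates 1 and 2. At day 5 it was -0.68 and -1.06, the second in a set-apart pair. The test of the difference over 3 days in the 8 libraries did not call it (limma F test, adjusted p = 0.233), nor did the day 5 difference minus the day 1 difference (-1.68, adjusted p = 0.163). With the filter over the 8 libraries, which was run first, that contrast was called (adjusted p = 0.0343), and the pairs themselves were not tested.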

How the results depend on the processing

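Members called per comparison were 2, 0, 1 and 4 for treatment at day 1, day 3, day 5 and the mean of the 3 days, 2 and 2 for vehicle day 3 and day 5 against day 1, 1 and 4 for treated day 3 and day 5 against day 1, and 0 for treatment by day. With the filter over the 8 libraries, an alternative chosen after seeing the data, they were 5, 4, 1 and 4 for treatment, 3 and 3 for vehicle over time, and 2 for treated day 3. limma-voom on the 8 libraries called 4, 2, 2 and 4 for treatment, 3 and 3 for vehicle over time, and 2 for treated day 3. Of all 14715 genes it called 2759 for the mean, 4234 and 5280 for vehicle over time, and 4358 for treated day 3. With the filter over the 8 libraries those counts were 2871, 4082, 5371 and 4214 of 14371 genes. Igtp was the member added in vehicle cells by both alternatives, and at day 5 also by a pseudocount of 5 and the deposited log2 values. For treatment at day 1 both alternatives added Gbp7 and Irgm2, and the filter over the 8 libraries also added Gbp3. Irgm2 was added there too by a pseudocount of 5, the deposited log2 values and the replicate block in the 8 libraries. With no filter, counts were 0, 0, 0 and 2 for treatment, 1 and 0 for vehicle, and 0 and 0 for treated cells over time. A pseudocount of 5 and the deposited log2 values each called 2 at day 5, and quantile normalization called 1 at day 1. Leaving out 1 library gave 0 to 2 members at day 1, 0 at day 3, 0 to 1 at day 5, 0 for the mean of the 3 days, 0 to 2 and 0 to 3 for vehicle over time, and 0 to 1 and 0 to 4 for treated cells. The lone library left in an arm is assumed to vary like the other groups. The causes were not tested.

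With all 12 libraries, in limma or limma-voom (the latter added after seeing the data) or with 1 term for the replicate block, 0 members were called in any comparison. With a replicate block by day the counts were 0, 0, 0 and 2 for treatment, Gbp5 and Irgm1 being called for the mean, and 0 over time. With the replicate block in the 8 libraries they were 3, 0, 1 and 4 for treatment, and 1 for vehicle day 3. For the mean and for vehicle day 3 that fit called 2618 and 3496 of all genes. Deviations of same-numbered libraries correlated at 0.0701, 0.899 and 0.897 at days 1, 3 and 5; with 2 numbers per group they share only a number and were not treated as paired.

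Over all genes, calls for treatment at days 1, 3 and 5 were 844, 17 and 855, against 2012, 391 and 2203 with the filter over the 8 libraries, 2007, 341 and 1960 with limma-voom, 1756, 151 and 1853 with the replicate block in the 8 libraries, 254, 1008 and 1381 with no filter, 0, 0 and 0 with all 12 libraries, and 0, 4 and 17 with the replicate block by day. At day 3, pseudocounts of 0.5 and 5 gave 10 and 37, and the deposited log2 values 37. Quantile normalization split the calls into 434 higher and 221 lower at day 1, and 380 and 270 at day 5, where the reported fit had 459 and 385, and 374 and 481. Without a day 1 library, calls were 0 at each of the 3 days.

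Directions turned mostly where set-apart libraries entered. With all 12 libraries, with or without the replicate block, day 5 minus day 1 in vehicle cells was -1.02 for Gbp2, -1.10 for Gbp3, -1.12 for Gbp5, -0.97 for Irgm1, -0.94 for Irgm2 and -0.74 for Igtp, and in treated cells -1.08 for Gbp2, -1.13 for Gbp5, -0.81 for Irgm1, -0.68 for Irgm2 and -0.40 for Igtp. Day 3 minus day 1 was -0.22 for Gbp3 in vehicle cells, and -0.24 for Gbp7 and -1.88 for Irgm2 in treated cells. limma-voom over 12 gave, in the same order, -0.91, -1.08, -1.03, -0.95, -0.80 and -0.64, then -1.05, -1.08, -0.82, -0.65 and -0.37, then -0.11, -0.086 and -1.65. Treatment minus vehicle for Gbp7 at day 3 was -0.10 in the 12-library fits of limma, the replicate block by day included, and -0.0037 in limma-voom, which also gave -0.14 for Gbp3 and -0.16 for Gbp9 at day 5. Casp8 for the mean of 3 days was 0.032 with all 12 libraries, any replicate block included, and 0.039 in limma-voom. With the replicate block by day, Gbp2 in vehicle cells at day 3 was 0.093 above day 1. Irgm2 in treated cells at day 3, near 0, was -0.044 with the replicate block in the 8 libraries and -0.031 with quantile normalization. Leaving out a day 1 library of the same arm gave -1.25 and 0.25 for Gbp2 in vehicle cells at day 3, -0.055 and 0.0089 for Gbp3 and -0.10 and 0.17 for Irgm2 in treated cells at day 3, and -0.0658 and 0.26 for Gbp5 in vehicle cells at day 5. Depth limits Gbp2, Gbp3 and Gbp5 most, with under 40 reads in every library.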
